A study of Mus musculus with 10 samples.

Results

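The Elf5 and Ehf locus is a window of 240 kb on mouse chromosome 2 (mm9, chr2:103080000-103320000), and its members are all called STAT5 peaks that overlap this window. There were 28 such peaks: 17 of 26237 called for STAT5A in wild type tissue, 7 of 6976 called for STAT5B in wild type tissue and 4 of 2578 called for STAT5B in Stat5a-null tissue. The window was selected on a group of STAT5A peaks seen in these same lists, so its peak numbers are a description of the locus and carry no test. That it holds Ehf and Elf5 was taken from this choice and not checked against an annotation. Peaks were mapped by chromatin immunoprecipitation and sequencing (ChIP-seq) of mouse mammary tissue taken on the day the mice gave birth. Mice titled AABB are wild type and have Stat5a and Stat5b. Mice titled BB are Stat5a-null, with Stat5b left. Mice of either genotype were of the mixed strain 129SV::FVB/N::C57BL/6, and their age is not given in the sources used here. The STAT5A library was made with the Santa Cruz antibody sc-1081 and the STAT5B libraries with sc-835, from whole mammary tissue, so the peaks cannot be assigned to one cell type. The lists hold no expression values against which to check the labelled tissue. Each of the 3 groups has 1 library, the number of animals behind a library is not stated, and differences between groups cannot be checked against replicates. The other 7 samples of the series were not analysed here.

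Prolactin acts on the mammary epithelium through its receptor and the kinase JAK2, which phosphorylates STAT5A and STAT5B. The phosphorylated proteins form dimers, enter the nucleus and bind DNA. ELF5 and EHF are ETS-family transcription factors of epithelial cells, and ELF5 is known as a factor that luminal progenitor cells need to form milk-secreting alveoli, a step that also needs STAT5. In the RefSeq gene table of another build (GRCm38.p6) the genes follow each other on the chromosome as Apip, Gm13869, Ehf, A930006I01Rik, BC016548, Elf5, Cat and Abtb2. Apip encodes an enzyme of methionine salvage and Cat encodes catalase, which breaks down hydrogen peroxide. Gm13869, A930006I01Rik and BC016548 are annotated as long noncoding RNAs. An mm9 annotation was not used here, so no peak is placed in a promoter, exon or intron, and distances between peaks are given instead. An mm9 genome was not used here either, so no sequence of a peak is shown.

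STAT5A peaks were called at 17 separate sites of the locus, which are numbered 1 to 17 here from the lower to the higher coordinate. All 7 wild type STAT5B peaks and all 4 Stat5a-null STAT5B peaks lay on one of these sites, so 4 sites were called in all 3 libraries, 3 sites in both wild type libraries alone and 10 sites for STAT5A alone. Over the whole lists 98.7% of wild type STAT5B peaks and 98.4% of Stat5a-null STAT5B peaks overlapped a STAT5A peak, so full overlap here is near the background. Peaks counted as overlapping when they had at least 1 bp in common. Whether either antibody also recognises the other STAT5 protein was not tested. The series also holds a STAT5A library of Stat5a-null tissue, which is among the samples not analysed here.

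**Figure D1:**
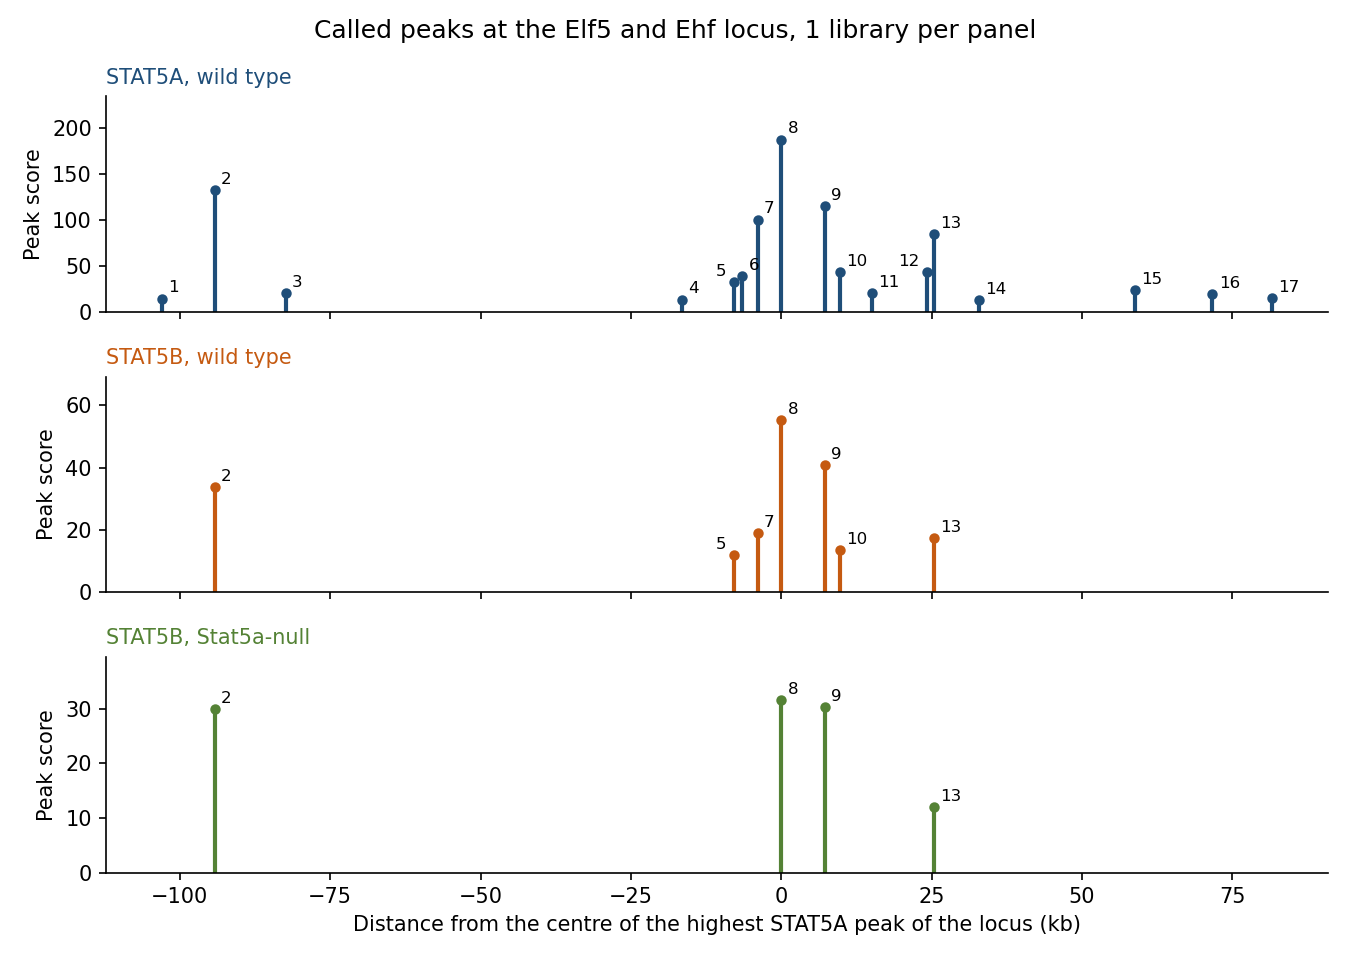
Scores of the called peaks (vertical axis, one scale per panel, 1 library each) against the distance in kb from the centre of the highest STAT5A peak, with site numbers beside the points. The 11 STAT5A peaks of sites 4 to 14 lie close together, while site 2, which has a STAT5B peak in both genotypes, stands 94.2 kb away.

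Sites 4 to 14 formed 1 run of 11 STAT5A peaks over 49.6 kb (chr2:103188369-103237925), in which no gap between neighbours exceeded 12.5 kb. Sites 1 to 3 formed a separate group on the lower-coordinate side, 65.6 kb from the run. Sites 15 to 17 lay on the other side, with 25.7 kb between site 14 and site 15. The run held 6 of the 7 wild type STAT5B peaks and 3 of the 4 Stat5a-null STAT5B peaks. The remaining peak of each list lay at site 2. Sites 15 to 17 held no STAT5B peak in either genotype.

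The closest neighbours within the run were sites 12 and 13, with 0.869 kb between the peaks, and sites 5 and 6, with 1.07 kb between them. In either pair only 1 of the neighbours had a wild type STAT5B peak, site 13 in the former and site 5 in the latter. Beyond the window, the nearest STAT5A peaks lay 30.2 kb before its start (chr2:103049567-103049842, score 28.0) and 89.9 kb after its end (chr2:103409912-103410187, score 34.7). The outermost peaks inside it were site 1, with a STAT5A score of 14.8, and site 17, with 15.6. After the window, the nearest STAT5B peaks of both genotypes lay 103.5 kb away, at chr2:103423481-103423732 in wild type tissue (score 16.7) and chr2:103423487-103423744 in Stat5a-null tissue (score 13.3).

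Scores are the values the authors deposited for each peak. Their scale is not stated, but they behave like tag counts multiplied by 1 factor per list, and the number of tags is given on that reading. The highest STAT5A peak of the locus was site 8 (chr2:103204884-103205159), with a score of 187.2, or 1090 tags, and it ranked 89 in the STAT5A list. The same site carried the highest STAT5B peak of the locus in wild type tissue, with a score of 55.4 (232 tags, ranked 85 of 6976). In Stat5a-null tissue it scored 31.6 (150 tags, ranked 241 of 2578), which was within the counting error of sites 9 and 2. Site 8 thus led the locus in both wild type libraries.

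Site 2 (chr2:103110730-103111005), the site outside the run, had the second highest STAT5A score of the locus, 132.9 (774 tags, ranked 661). Its STAT5B scores were 33.7 in wild type tissue (141 tags, ranked 711) and 29.9 in Stat5a-null tissue (142 tags, ranked 287). Its flanking sites were weak: site 1 (chr2:103101843-103102118) scored 14.8 and site 3 (chr2:103122481-103122756) scored 20.8 for STAT5A, and neither had a STAT5B peak.

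Site 9 (chr2:103212177-103212452), 7.3 kb from site 8, had a STAT5A score of 115.2 (671 tags, ranked 1102). Its STAT5B scores were 40.8 in wild type tissue (171 tags, ranked 347) and 30.3 in Stat5a-null tissue (144 tags, ranked 273). Its STAT5A score was below that of site 2, while its STAT5B score in Stat5a-null tissue was within the counting error of that of site 2. Site 13 (chr2:103230288-103230563), 25.4 kb from site 8, was the weakest site called in all 3 libraries. It scored 85.2 for STAT5A (496 tags, ranked 2521), 17.4 for wild type STAT5B (73 tags, ranked 3533) and 12 for Stat5a-null STAT5B (57 tags, ranked 2277).

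At 3 sites of the run STAT5B was called in wild type tissue and not in Stat5a-null tissue. The highest of them was site 7 (chr2:103200995-103201270), 3.9 kb from site 8, with a STAT5A score of 100.5 (585 tags, ranked 1651) and a wild type STAT5B score of 19.1 (80 tags, ranked 2942). Site 10 (chr2:103214659-103214934) scored 43.5 for STAT5A (253 tags) and 13.6 for STAT5B (57 tags). Site 5 (chr2:103197034-103197309) scored 32.8 for STAT5A (191 tags) and 11.9 for STAT5B (50 tags). The lowest score of any called peak was 9.3 in the wild type STAT5B list and 8.2 in the Stat5a-null list. In the wild type STAT5B list site 5 was near the lower end (ranked 6432 of 6976) and site 10 was in the lower part (ranked 5330). Signal too low to be called is not shown in these files.

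The 10 sites called for STAT5A alone had STAT5A scores from 12.9 to 43.8, with a median of 20.5. The highest of them were site 12 (chr2:103229143-103229418), with 43.8, and site 6 (chr2:103198383-103198658), with 39.3. Sites 15, 11 and 16 scored 24.2, 21.0 and 20.1. Sites 17, 4 and 14 scored 15.6, 13.9 and 12.9, the last of these close to the lowest STAT5A score called anywhere, 11. These 10 sites overlapped in STAT5A score with the 3 sites called in wild type tissue for both proteins (32.8 to 100.5). They did not overlap with the 4 sites called in all 3 libraries (85.2 to 187.2).

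**Figure D2:**
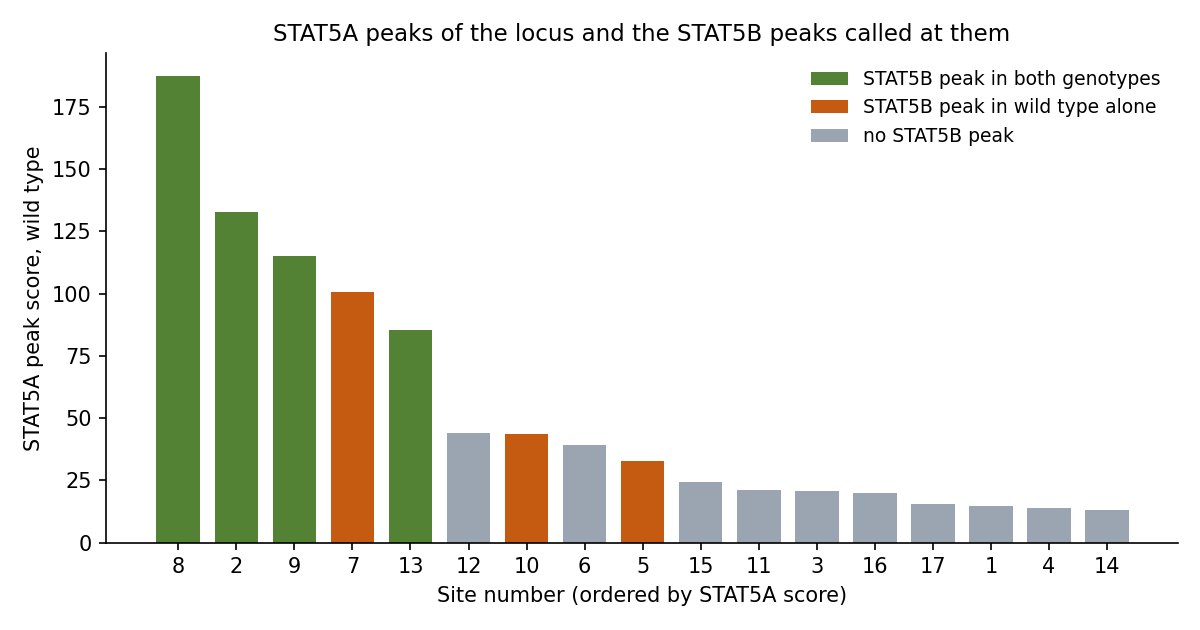
STAT5A score in wild type tissue (vertical axis) of the 17 sites ordered by that score, coloured by whether a STAT5B peak was called in both genotypes, in wild type alone or in neither. Site 7, at 100.5, has no Stat5a-null STAT5B peak although site 13, at 85.2, has one near the lower end of that list (ranked 2277 of 2578).

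The first comparison asked at how many of the STAT5A sites STAT5B was also found in wild type tissue. At the locus it was 7 of 17 sites, or 41.2% (exact Clopper-Pearson 95% interval 18.4% to 67.1%, for counting error only, and treating neighbouring peaks as independent). Over the whole STAT5A list the share was 26.3%, which lies within this interval. The share in the list depends strongly on the STAT5A score, so each site was read against the tenth of the list it belongs to. Sites 2, 7, 8, 9 and 13 belonged to the highest decile, where 99.2% of STAT5A peaks had a STAT5B peak, and all 5 had one. Sites 10 and 12 belonged to the third decile, where the share was 54.2%, and site 10 had a STAT5B peak while site 12, with nearly the same STAT5A score, had none. Site 6 was in the fourth decile (14.9%) and had none. Site 5 was in the fifth decile, where only 3.12% (2.49% to 3.86%) of STAT5A peaks had a STAT5B peak, and it had one. The remaining 8 sites were in the sixth decile or lower, where at most 0.572% of a decile had a STAT5B peak, and none of the 8 had one.

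**Figure D3:**
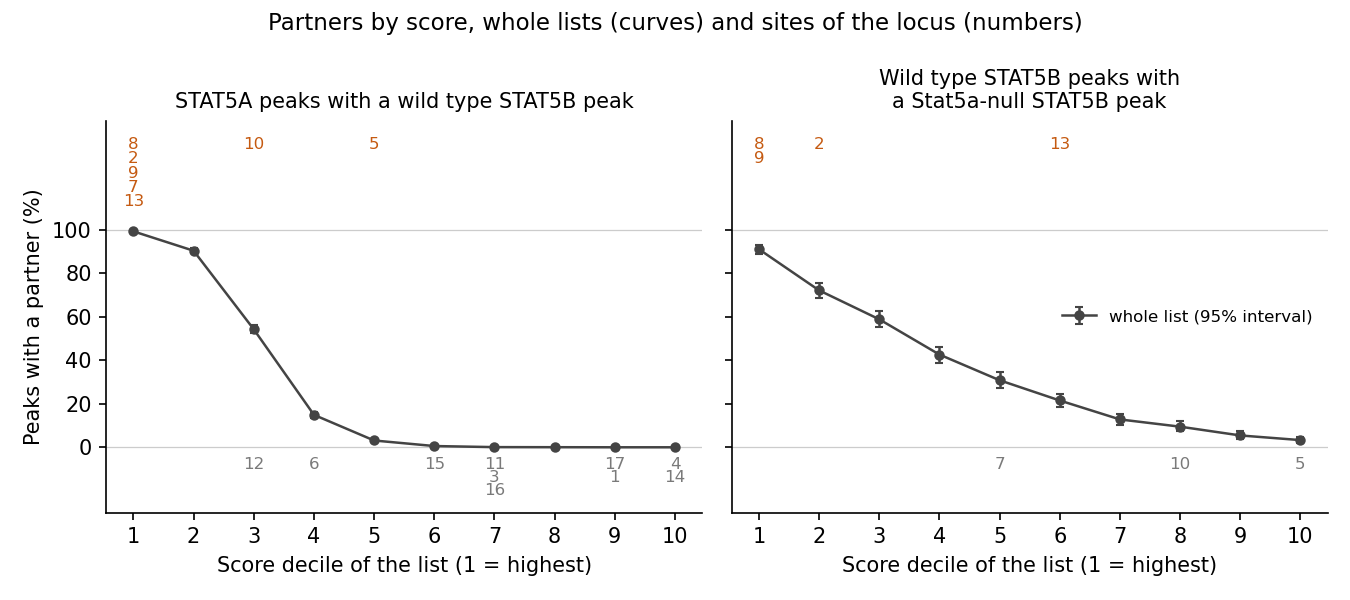
Percent of peaks with a partner (vertical axis) by score decile of the list (horizontal axis, 1 the highest) for all STAT5A peaks and wild type STAT5B peaks, with exact 95% intervals. Numbers above the curves are sites of the locus with a partner and numbers below are sites without one; site 5 in the left panel and site 13 in the right panel have a partner in deciles where few peaks do (3.12% and 21.5%).

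The second comparison asked which STAT5B sites of the locus were found in the absence of STAT5A. A Stat5a-null STAT5B peak was called at 4 of the 7 wild type STAT5B sites, or 57.1% (18.4% to 90.1%). Over the whole wild type STAT5B list the share was 34.8%, which lies within the interval. As before, the interval covers counting error only and treats neighbouring peaks as independent, so it is not a test of the locus. By decile of the wild type STAT5B list, sites 8 and 9 were in the highest, where 91.0% had a Stat5a-null peak, and site 2 in the second (72.1%). All 3 had one. Site 13 was in the sixth decile, where 21.5% (18.5% to 24.7%) had a Stat5a-null peak, and it had one as well. Site 7 stood higher, in the fifth decile (30.8%), and had none. Site 10 in the eighth decile (9.47%) and site 5 in the lowest (3.30%) had none.

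The order of sites 7 and 13 was therefore opposite to the general one, in which the higher of a pair of wild type STAT5B peaks is the one found in Stat5a-null tissue. Within the run, 3 wild type STAT5B peaks had a Stat5a-null peak and 3 had none, which makes 9 pairs. In 8 of them the peak with a Stat5a-null partner had the higher wild type score, and the exception was the pair of sites 7 and 13. In the other STAT5A runs that held wild type STAT5B peaks of both kinds, it had the higher score in 424 of 485 pairs (87.4%). At least 1 pair in the opposite order occurred in 39 of these 146 runs (26.7%). A run with more pairs has more room for such a pair, and those 146 runs had 485 pairs in all beside 9 in this run. The 26.7% is therefore not the share for runs with as many pairs as this one. The wild type scores of the pair, 19.1 and 17.4, correspond to 80 and 73 tags, a difference smaller than the counting error of either. The Stat5a-null STAT5B peak of site 13 was near the lower end of its list (57 tags, ranked 2277 of 2578). Signal too low to be called is not shown, so whether site 7 had less Stat5a-null signal than site 13 was not tested.

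In the third comparison, STAT5A in wild type tissue was set beside STAT5B in Stat5a-null tissue. A Stat5a-null STAT5B peak was called at 4 of the 17 STAT5A sites, or 23.5% (6.81% to 49.9%, with the same limits). Over the whole STAT5A list the share was 9.67%. All 4 of these sites were among the 5 in the highest STAT5A decile, where the share was 68.3%. Site 7 was the fifth. No Stat5a-null peak appeared at a place without a wild type STAT5B peak, as for 94.1% of the whole Stat5a-null list.

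STAT5B and STAT5A scores followed much the same order over the 7 sites called for both in wild type tissue, with Pearson's r of 0.93 and Spearman's rho of 0.96, given as a description of 7 sites of the same 2 libraries. Their ratio differed between sites by more than the counting error. Since the scales of the lists are not stated, a ratio was read only against the other shared sites of the same STAT5A decile. In the highest decile the other 2603 shared sites had a median ratio of STAT5B to STAT5A score of 0.249, with quartiles of 0.225 and 0.273. Site 9 had a ratio of 0.354 (95% counting interval 0.298 to 0.420), and 99.7% of those sites had a lower one. Site 8 followed at 0.296 (0.256 to 0.341), with 90.0% lower. Site 2 lay near the middle at 0.254 (0.210 to 0.303), with 55.4% lower.

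Sites 7 and 13 lay at the other end of this range. Site 7 had a ratio of 0.190 (0.149 to 0.241), and only 4.03% of the shared sites of its decile had a lower one. Site 13 had 0.204 (0.158 to 0.262), with 9.34% lower. The interval of site 13 held the median of the decile, 0.249, whereas that of site 7 did not. The intervals of sites 7 and 9 did not meet, and neither did those of sites 13 and 9 or of sites 7 and 8. Sites 7 and 9, which start 11.2 kb apart in the run, thus differed relatively less in STAT5A score (100.5 and 115.2) than in STAT5B score (19.1 and 40.8). Sites 10 and 5 belong to lower deciles, in which weak STAT5B peaks are missing from the shared sites. Their ratios were 0.313 for site 10 (87.0% of 1422 other shared sites lower) and 0.363 for site 5 (25.9% of 81 lower).

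**Figure D4:**
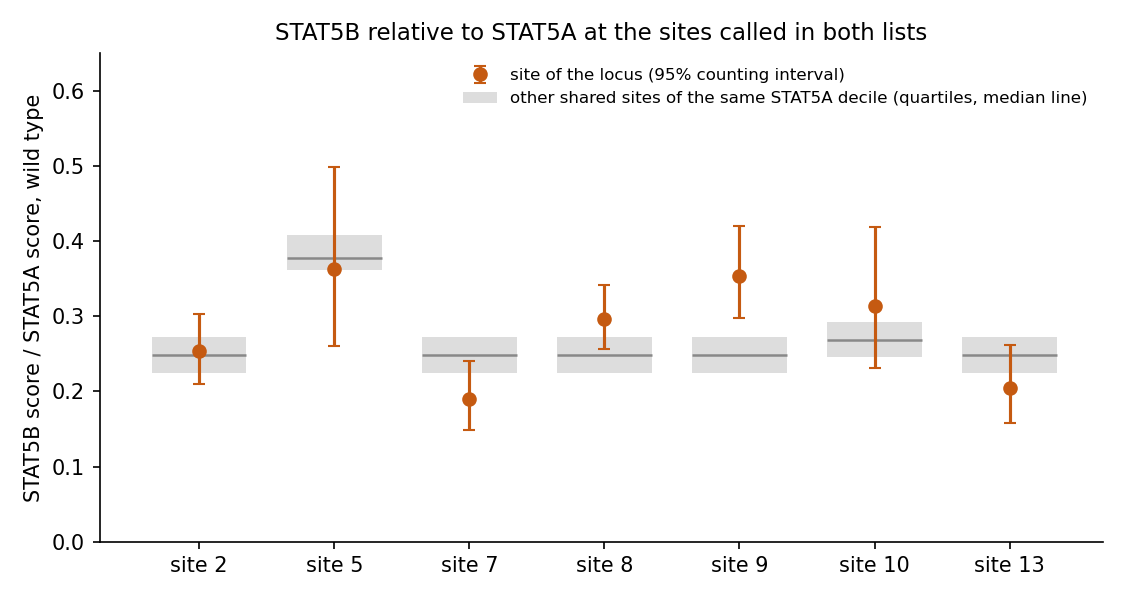
Ratio of STAT5B to STAT5A score in wild type tissue (vertical axis) at the 7 sites called for both, with 95% counting intervals, over grey boxes that give the quartiles and median of the other shared sites of the same STAT5A decile. Site 9 (0.354) lies above its box and site 7 (0.190) below.

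The heights of the 4 sites called in all libraries were then compared within each library, as shares of the tags of these 4 sites, which does not depend on the scale of a list. Site 8 took 36.0% (34.3% to 37.7%) of these tags for STAT5A and 37.6% (33.8% to 41.6%) for wild type STAT5B. In Stat5a-null tissue it took 30.4% (26.4% to 34.7%) of the STAT5B tags. Site 2 took 25.5%, 22.9% (19.6% to 26.4%) and 28.8% (24.8% to 33.0%) in the same order. For both sites the intervals of the 2 STAT5B libraries overlapped. Site 9 took 22.1% (20.7% to 23.7%) for STAT5A, 27.7% (24.2% to 31.4%) for wild type STAT5B and 29.2% (25.2% to 33.4%) for Stat5a-null STAT5B, so its share was above that of STAT5A in both STAT5B libraries, without overlap of the intervals. Site 13 took 16.4% (15.1% to 17.7%) for STAT5A, 11.8% (9.39% to 14.6%) and 11.6% (8.88% to 14.7%), below STAT5A in both STAT5B libraries.

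**Figure D5:**
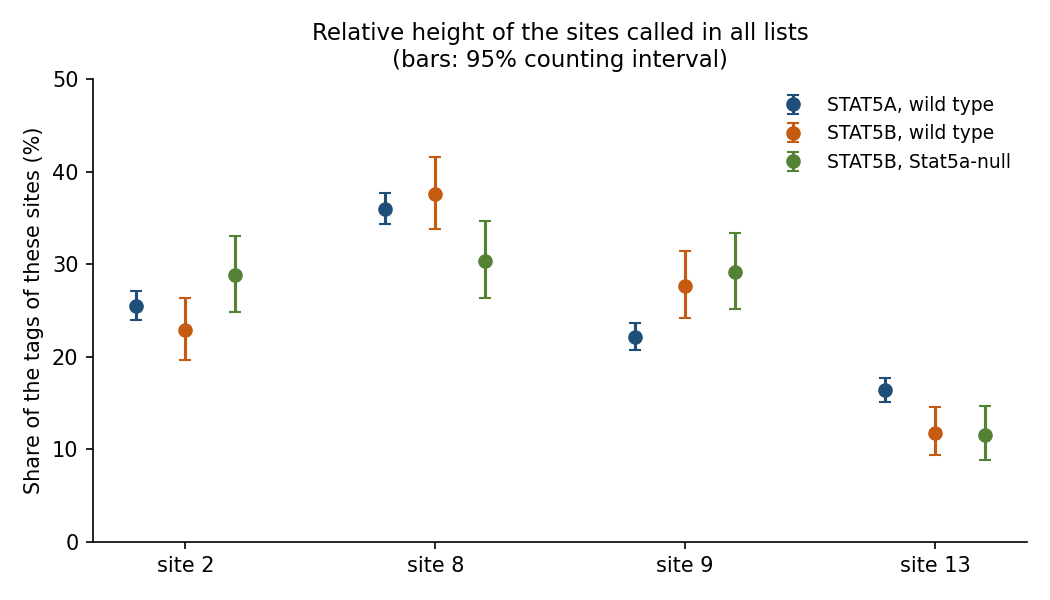
Share of the tags of sites 2, 8, 9 and 13 that fell on each of them (vertical axis, percent) in the 3 libraries, with exact 95% counting intervals. Sites 8, 2 and 9 are nearly level in the Stat5a-null library (30.4%, 28.8% and 29.2%), whereas in the wild type STAT5B library site 8 stands above site 2.

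As a ratio of tags, site 8 was 1.65 times as high as site 2 in wild type STAT5B (95% counting interval 1.33 to 2.04) and 1.06 times as high in Stat5a-null STAT5B (0.834 to 1.34). These intervals overlapped slightly. Against site 9 it was 1.36 times as high (1.11 to 1.66) in wild type and 1.04 times (0.823 to 1.32) in Stat5a-null tissue. Site 8 therefore exceeded sites 2 and 9 by more than the counting error in wild type tissue, and in Stat5a-null tissue the 3 sites could not be ordered at this depth. With 1 library per genotype, a difference between the genotypes and one between 2 libraries cannot be told apart.

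The Stat5a-null to wild type ratio of STAT5B scores ran from 0.570 (0.461 to 0.703) at site 8 to 0.887 (0.698 to 1.13) at site 2. It was 0.743 (0.590 to 0.932) at site 9. The 634 other shared sites of the highest wild type STAT5B decile had a median ratio of 0.640, and 34.9% of them lay below site 8 and 70.2% below site 9. Of the 502 other shared sites of the second decile, with a median of 0.628, 88.8% lay below site 2. A Stat5a-null peak was called for 91.0% of the highest decile and 72.1% of the second. Peaks without one are missing from these places, more so in the second decile. At site 13 the ratio was 0.690 (0.478 to 0.986), with 13.4% of the 149 other shared sites of its decile lower and a median of 0.796. Only 21.5% of the peaks of that decile had a Stat5a-null peak. Weak Stat5a-null peaks are missing from those shared sites, so the low place of site 13 among them cannot be read as a greater reduction. All 4 sites thus lay within the range of other shared sites of their decile.

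The peaks called at a site in different libraries had nearly the same position. Centres of the STAT5A and wild type STAT5B peaks lay from 5 to 54 bp apart at the 7 sites, with a median of 34 bp, beside 19 bp over all 6888 such pairs. Wild type and Stat5a-null STAT5B centres lay from 6 to 16 bp apart at the 4 sites, with a median of 8 bp, also beside 19 bp over all 2426 pairs. All peaks of a list had the same width, so width is a property of the list and not of a site. It was 276 bp for STAT5A, and for STAT5B 252 bp in wild type and 258 bp in Stat5a-null tissue.

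The locus was set beside the rest of the genome as a description, since it was chosen for its STAT5A peaks. Among 10990 windows of the same length laid end to end along the chromosomes, 28 (0.255%) held 17 or more STAT5A peaks, 62 (0.564%) held 7 or more wild type STAT5B peaks and 78 (0.710%) held 4 or more Stat5a-null STAT5B peaks. Peaks were assigned to these windows by their centres. On chromosome 2 the windows were placed so that the locus was 1 of them, and these counts include it. Other groups of peaks can be cut by a window edge, so these shares can make the locus look rarer than it is. The median window held 1 STAT5A peak and no STAT5B peak of either genotype, and the most that one window held was 29, 14 and 12. Of the 434 runs of at least 5 STAT5A peaks in the list, 4 had more peaks than the run at this locus and 3 others had as many. The highest score of the run, 187.2, was exceeded in 16 others.

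The run at this locus held 6 wild type STAT5B peaks. Of the 434 runs, 7 held more and 7, this one included, held as many. It held 3 Stat5a-null STAT5B peaks, where 15 runs held more and 23, this one included, held as many. The 20 other runs with at least 9 STAT5A peaks held from 1 to 13 wild type STAT5B peaks (median 4) and from 0 to 5 Stat5a-null STAT5B peaks (median 2). Of their 214 STAT5A peaks 42.5% had a wild type STAT5B peak and 20.6% a Stat5a-null one, beside 6 and 3 of 11 here.

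The 5 runs nearest in number of STAT5A peaks spanned 48.8 to 73.5 kb, beside 49.6 kb here. The run on chromosome 2 from 28377480 to 28433732 held 11 peaks for STAT5A, with STAT5B peaks at 4 of its sites in wild type mice and at 3 without Stat5a. In the same order, a run on chromosome 12 from 81913018 to 81986555 held 11, 7 and 4, and another on chromosome 12 from 87397786 to 87451155 held 11, 7 and 2. The run on chromosome 4 from 40792422 to 40855560 held 10, 5 and 3, and that on chromosome 5 from 36886923 to 36935738 held 10, 3 and 2. The run at Elf5 and Ehf had a median STAT5A score of 43.5, and the medians of these 5 ran from 29.8 to 101. Its counts thus fell between those of the others for STAT5B in both genotypes.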

How the data were processed

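Peak lists of 3 ChIP-seq libraries were used, 1 per group, grouped by sample title and the series' design text. Per the submitters' processing notes, CASAVA, BWA and HOMER were used on mm9, and no source used here gives versions, control libraries or thresholds. The authors deposited 1 score per peak, on a scale that is not stated. Read depth is unknown. Scores were whole multiples of 1 step per list (0.172 for STAT5A, 0.239 for STAT5B in wild type and 0.210 for STAT5B in Stat5a-null tissue, fitting 99.6%, 100% and 100% of distinct scores within 0.05), and tags are score divided by step. Rounding to 1 decimal allows a second, smaller step for the STAT5B lists (0.172 and 0.191). The larger was used, being nearer to the mean gap of their 100 lowest distinct scores (0.241 and 0.223). Tag counts and counting intervals rest on that reading, whereas scores and ranks do not.

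Starts are printed 1-based. Overlap, deciles and runs of peaks were computed in Python 3.11.15 (numpy 2.4.6, pandas 2.3.3, scipy 1.17.1, matplotlib 3.10.9), tested on simulated data, and 6 overlap counts were checked with bedtools 2.31.1. All peaks of the window were described, and the 5 STAT5A runs nearest in number of peaks were named beside it. The members and the comparisons were chosen with earlier results of these data known. The planned motif search and the counts around other ETS-family genes were not run, as they need an mm9 genome and annotation.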

Additional observations from a re-analysis of the deposited data

How the results depend on the processing

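Of 31 alternatives over 8 values, 24 stayed within 1.5 times the count or within the counting interval and 7 moved. Overlap of 50% of both peaks, centres within 100 bp and gaps of up to 500 bp gave the same shares as an overlap of 1 bp. Keeping the higher-scoring 50% of each list left 9 STAT5A and 4 wild type STAT5B peaks at the locus. Reducing all lists to the length of the shortest left 5 and 3. It put the share of STAT5A sites with Stat5a-null STAT5B at 80% (4 of 5) and of wild type STAT5B peaks with Stat5a-null STAT5B at 100% (3 of 3). The background rises with such a cut as well. In the highest decile of the whole STAT5A list, which is close to this cut, it was 68.3%. From the first to the fourth decile of the whole wild type STAT5B list it ran from 91.0% to 42.6%. Both settings remove weak peaks by construction, so the share of sites shared between genotypes depends on how far down the lists were called. A gap of 5 kb split the run, leaving 4 peaks in its largest piece (sites 5 to 8), and 25 kb left it at 11. Leaving out a replicate was not possible. No paired analysis was possible because each group has 1 library and no test was made. The motif alternatives were not run.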
